A study of Mus musculus with 4 samples.

Results

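The genes of MHC class I and class II antigen presentation were followed in whole mouse embryos that lacked the RNA helicase gene Ddx6. They were all genes of the count table with a symbol that starts with H2-, to which B2m, Tap1, Tap2, Tapbp, Psmb8, Psmb9, Cd74, Ciita and Nlrc5 were added by name. This gave 52 of 24421 genes, 43 by the prefix and 9 by name. In all, 24 of them reached 10 reads in at least 1 library and were compared, 8 had fewer reads, and 20 had 0 reads in every library.

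The 4 libraries were polyadenylated RNA of whole ICR embryos, an outbred mouse strain. Of these, 1 held wild-type embryos of embryonic day 7.5 (E7.5 WT) and 1 those of day 8.5 (E8.5 WT), and 2 held Ddx6 -/- embryos of day 8.5 (KO1 and KO2). The null allele came from Cre deletion of a floxed exon and was carried in every cell. The E8.5 embryos were genotyped from extraembryonic tissue or yolk sac, so that some of it may be missing from their libraries. Per the study's methods KO1 pooled 2 embryos, 1 from before and 1 from after head-fold formation, and KO2 pooled 3 embryos from before it, so that stage and library cannot be told apart in the KO group.

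Class I molecules display peptides from inside the cell to T cells and natural killer cells. The proteasome cuts the peptides, the Tap1 and Tap2 proteins pump them into the endoplasmic reticulum, and tapasin, encoded by Tapbp, helps to load them onto a heavy chain paired with the light chain B2m. Class II molecules display peptides taken up from outside, mainly on macrophages, dendritic cells and B cells, where the invariant chain Cd74 guards the groove and H2-DM exchanges the peptide under the control of H2-O. Early embryos are known for low levels of class I molecules.

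Promoters of both classes carry a conserved module that binds the transactivators Nlrc5 (class I) and Ciita (class II), and one of its elements is the Y box, an inverted CCAAT. The sequences below show where its letters stand in the members on which the results turn. A RefSeq promoter (GRCm38.p6, 250 bases before to 50 after the start site) was matched for 36 of 52 members. The Y box letters TGATTGG, searched on both strands, were in 24 of 36 of them and in 7.82% of 32851 promoters. All 7 of 8 class II promoters that held them read in the direction of the gene, 45 to 102 bases before the start site. The stretches are lined up on the Y box, which is in capitals, and each is 80 bases long.
H2-DMb1: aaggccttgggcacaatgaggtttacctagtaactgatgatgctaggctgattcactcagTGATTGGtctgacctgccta
H2-DMb2: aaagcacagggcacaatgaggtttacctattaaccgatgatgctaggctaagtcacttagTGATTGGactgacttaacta
H2-Oa: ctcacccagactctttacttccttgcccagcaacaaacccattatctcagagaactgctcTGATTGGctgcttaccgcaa
H2-Aa: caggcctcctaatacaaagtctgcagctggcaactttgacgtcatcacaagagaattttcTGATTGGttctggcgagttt
H2-Eb2: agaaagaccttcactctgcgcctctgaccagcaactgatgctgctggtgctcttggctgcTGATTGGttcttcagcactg

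They lie at chr17:34153068-34153147 (plus strand), chr17:34145097-34145176 (plus), chr17:34092274-34092353 (plus), chr17:34287854-34287933 (minus) and chr17:34325513-34325592 (plus), in the order printed. H2-DMb1 and H2-DMb2, the neighbouring genes for the beta chain of H2-DM, were both called above both WT stages, and H2-Aa is a classical class II gene from the same region that had almost no reads. In class I the Y box letters were in 15 of 22 heavy chain promoters, on the opposite strand in 14 of these. There they read CCAATCA along the gene, a CCAAT that is not inverted. Whether they are the Y box of the module was not tested, so that 15 of 22 counts these letters and not the module. H2-K1, H2-D1, H2-Q4 and H2-T23 are shown for the range of their levels and changes. Capitals mark the searched Y box letters, here not inverted, in all 4 and the NF-kB letters GGGGATTCC in H2-K1 and H2-D1. They also mark the interferon response letters GAAANNGAA, read on the opposite strand, in H2-T23. The H2-K1, H2-D1 and H2-Q4 stretches also hold an inverted CCAAT, left in lower case, ahead of the marked Y box letters. The search passed over it because the letters beside it differ from those searched. Whether it is the Y box of the module was not tested either.
H2-K1: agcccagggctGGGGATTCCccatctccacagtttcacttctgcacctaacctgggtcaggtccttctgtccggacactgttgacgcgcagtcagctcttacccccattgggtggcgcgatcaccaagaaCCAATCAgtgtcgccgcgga
H2-D1: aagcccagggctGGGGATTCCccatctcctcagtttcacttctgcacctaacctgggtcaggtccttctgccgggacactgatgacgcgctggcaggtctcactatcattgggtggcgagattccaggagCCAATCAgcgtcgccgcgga
H2-Q4: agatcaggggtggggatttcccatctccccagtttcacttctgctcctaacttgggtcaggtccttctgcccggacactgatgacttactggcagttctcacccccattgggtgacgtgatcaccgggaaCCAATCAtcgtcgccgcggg
H2-T23: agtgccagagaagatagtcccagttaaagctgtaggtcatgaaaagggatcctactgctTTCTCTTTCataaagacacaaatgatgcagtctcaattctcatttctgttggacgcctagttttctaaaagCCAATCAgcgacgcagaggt

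These 150-base stretches lie at chr17:34000320-34000469 (minus), chr17:35262911-35263060 (plus), chr17:35379432-35379581 (plus) and chr17:36032734-36032883 (minus). The H2-K1 stretch runs past its RefSeq start site. The NF-kB letters were in 4 of 36 members, H2-K1, H2-D1, H2-Q6 and H2-Q7, and in 0.25% of all promoters. The interferon response letters were in 3 of 36 (8.33%), B2m, H2-T22 and H2-T23, close to the 8.56% of all promoters. Only these exact letters were searched, so that a promoter without them is not shown to lack an interferon element. Tap1 and Psmb9 are transcribed away from each other from start sites 226 bases apart, so that the same Y box letters (capitals) are in both promoters. The 250 bases before the Tap1 start site, chr17:34187306-34187555 (plus), are shown because Tap1 had 22 reads in KO1 and Psmb9 had 0.
Tap1: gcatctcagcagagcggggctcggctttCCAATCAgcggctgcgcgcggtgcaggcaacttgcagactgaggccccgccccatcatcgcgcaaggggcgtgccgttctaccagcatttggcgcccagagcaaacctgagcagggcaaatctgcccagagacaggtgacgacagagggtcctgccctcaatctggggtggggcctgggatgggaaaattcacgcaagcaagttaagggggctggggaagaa

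A match is a description of these letters and says nothing of binding. The motifs do not overlap each other in the stretches shown, and promoters of H2-Ab1, Tap2, Cd74, Ciita and Nlrc5 were not used here.

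Total counts were 8198402 in KO1 and between 12008252 and 12562640 in the other libraries. Read counts of a gene are given throughout in the order E7.5 WT, E8.5 WT, KO1, KO2. Ddx6 itself had 2943, 5715, 706 and 929 reads, lower in both KO libraries than in either WT library. Levels are in CPM, reads scaled to a common library total, after TMM scaling, which equalizes libraries on genes that move little. Changes are log2 differences of such levels with a prior count of 2 added, which pulls genes of few reads toward 0. A gene was called changed above 1 or below -1, the criterion of the study's methods. Intervals of ratios are exact 95% binomial intervals of the reads and cover counting error only. The spread between the 2 KO libraries covers embryos, stage and handling together, and these cannot be told apart.

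Some members of both classes had higher levels in the Ddx6 -/- embryos than in wild-type embryos of the same day. The genes called higher in both were the classical class I gene H2-D1, the peptide pump genes Tap1 and Tap2, the non-classical class I genes H2-T10 and H2-T23, and the class II accessory genes H2-Oa, H2-DMb1 and H2-DMb2. These were 8 of 24 members, where 3.44% of 14393 genes were called. No member was called lower in both, where 1.79% of genes were. Only 3 members, H2-DMb1, H2-DMb2 and H2-T23, were also above E7.5 WT in both KO libraries (0.75% of genes), and 0 were below both WT stages (0.361%). Of these 3, H2-DMb1 alone had counting intervals against E7.5 WT that excluded no change in both KO libraries. B2m, the light chain that all class I molecules share, was not called, and H2-K1 differed by less than the criterion.

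Of the 24 members, 8 reached 10 reads through a KO library alone (H2-DMb1, H2-DMb2, H2-Ab1, H2-Eb2, H2-Q10, H2-T23, H2-Bl and H2-M3) so that a higher KO level was part of their choice. Among the 16 members with 10 reads in a WT library, 5 were called higher in both KO libraries (H2-Oa, Tap1, Tap2, H2-D1 and H2-T10), against 2.82% of 13996 genes under the same filter, and 0 were above both WT stages, against 0.464%. This filter was chosen after the data were seen. Against E8.5 WT, KO1 had 10 members higher (4.97% of genes) and 1 lower (3.31%), and KO2 had 16 higher (9.41%) and 0 lower (5.91%). The 1 lower member was H2-Ke6, which carries the H2 prefix by position and encodes a dehydrogenase, not an MHC molecule.

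The edgeR quasi-likelihood test called 0 of 24 members after adjustment, both against E8.5 WT and against both WT libraries as 1 group, and 0.0% of all genes in each. At an unadjusted p under 0.05 in the first there were 4 members, Tapbp, H2-DMb1, Tap1 and H2-D1, all higher in 2 of 2 KO libraries, where 7.31% of genes reached it. In the second there were 3, H2-DMb1, H2-D1 and H2-T23, where 3.93% did. The smallest adjusted p of a member was 0.666 and 0.900. DESeq2 called 31 and 32 of all genes but 0 members, with 3 at an unadjusted p under 0.05 in each comparison, and gave no adjusted p for 18 members in the first. With 1 library of each WT stage, these tests had 1 and 2 residual degrees of freedom.

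**Figure D1:**
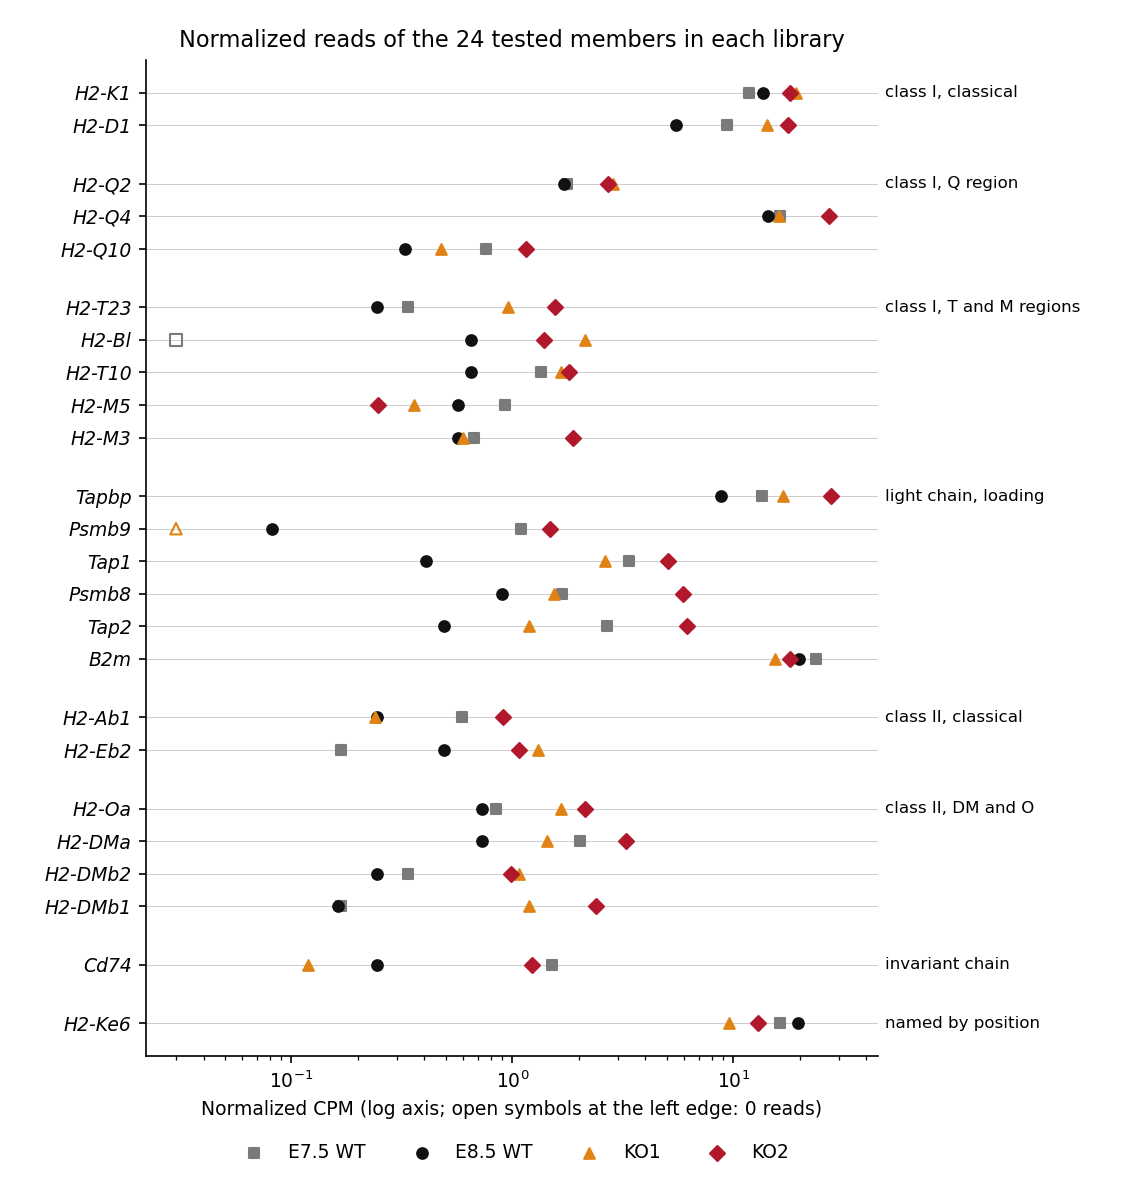
Normalized level in CPM (log axis) of the 24 members that reached 10 reads, grouped by class, with 1 symbol per library (grey square E7.5 WT, black circle E8.5 WT, orange triangle KO1, red diamond KO2; open symbols at the left edge had 0 reads). H2-K1, H2-D1, H2-Q4, Tapbp, B2m and H2-Ke6 have the highest levels within each library, but Tap2 and Psmb8 in KO2 pass H2-D1 in E8.5 WT. In the Tap and immunoproteasome rows E8.5 WT lies below E7.5 WT and KO2.

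Class I heavy chain genes had many more reads than class II genes in every library. In RPKM, the CPM divided by exon length in kilobases, on which genes can be compared, B2m had the highest level of all members in every library, up to 27.6 in E7.5 WT. H2-Q4, H2-K1 and H2-D1 stood at 5.55, 4.65 and 2.15 in E8.5 WT, while H2-T23 stood at 0.084 and the classical class II gene H2-Ab1 at 0.095. The 31 heavy chain members together had 517, 480, 499 and 901 reads. This was 43.5, 39.1, 59.4 and 73.9 CPM. Both KO sums were above both WT sums, at 1.52 times E8.5 WT in KO1 (1.34 to 1.73) and 1.89 times in KO2 (1.69 to 2.12). The median log2 change of the 10 heavy chain members compared was 0.58 in KO1 and 1.09 in KO2, where the medians of all genes were -0.01 and -0.00. Of these 10, H2-Q10, H2-T23, H2-Bl and H2-M3 reached 10 reads through a KO library alone, so that the median is no support for a rise. Over the others the median of the changes averaged over both KO libraries was 0.59, against 0.82 over all 10.

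Among the classical class I genes, H2-D1 (chromosome 17, 35262730 to 35267499, GRCm38) had 112, 68, 120 and 215 reads. Both KO libraries were above both WT libraries in CPM. The log2 change from E8.5 WT averaged 1.49 ± 0.21 (SD, n = 2), and the ratios were 2.58 in KO1 and 3.19 in KO2 (2.42 to 4.25 in the latter). The edgeR p was 0.0117 unadjusted and 0.666 adjusted. From E7.5 WT the change was 0.59 in KO1 and 0.89 in KO2, under the criterion. H2-K1 had 140, 168, 161 and 220 reads, and its log2 changes against E8.5 WT were 0.48 and 0.40. The lowest KO level of H2-K1 was also above the highest WT level, but by little. The third classical gene, H2-L, had 0 reads in every library.

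In the Q region H2-Q4 carried most reads, with 194, 177, 136 and 330. KO2 stood alone above the other 3 libraries, with a log2 change of 0.90 against 0.17 in KO1. H2-Q2 had 21, 21, 24 and 33 reads and log2 changes of 0.69 and 0.61, with both counting intervals spanning no change. H2-Q10, which encodes a secreted heavy chain, had 9, 4, 4 and 14 reads. H2-Q1 had 1 read in E7.5 WT and 1 in KO2, and H2-Q5, H2-Q6, H2-Q7, H2-Q8 and H2-Q9 had 0 in all. The H2-Q7 and H2-Q9 genes encode Qa-2, a class I molecule known from mouse preimplantation embryos. Their 0 counts do not show that its RNA was absent, as reads shared by near copies may go uncounted.

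The T and M regions hold non-classical genes with few reads. H2-T23 encodes Qa-1, which presents leader peptides of other class I chains to natural killer cells, and it had 4, 3, 8 and 19 reads. Both KO libraries were above both WT libraries. The KO1 ratio to E8.5 WT was 3.90, but its interval of 0.937 to 22.8 spans no change. The KO1 interval of H2-T23 against E7.5 WT, 0.759 to 12.9, does so too. H2-T10 had 16, 8, 14 and 22 reads and log2 changes of 1.15 and 1.26 against E8.5 WT, and E7.5 WT lay close to the KO level. H2-T10 and H2-Bl are annotated as polymorphic pseudogenes. H2-Bl had 0, 8, 18 and 17 reads, and it was the only member called higher in E8.5 WT than in E7.5 WT, where 12.2% of genes were called. H2-M3, which presents formylated peptides, had 8, 7, 5 and 23 reads, high in KO2 alone. H2-M5 had 11, 7, 3 and 3 reads, the only heavy chain compared that had lower values in both KO libraries, with intervals that span no change. H2-T24 had 1, 9, 6 and 4 reads, while H2-T3, H2-T9, H2-T22, H2-M1, H2-M2, H2-M9, H2-M11 and the 6 H2-M10 genes, known from the vomeronasal organ, had 0 in every library.

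Heavy chain genes are near copies of each other, and their counts are uncertain. Of the 50-base stretches of their annotated transcripts, 9.63% of H2-K1, 12.8% of H2-D1, 21.8% of H2-Q4 and 32.9% of H2-T10 also occur in another gene. Of members at 0 reads, H2-Q5, H2-Q6, H2-Q7 and H2-T22 share 36.4%, 32.0%, 26.4% and 34.5%, so that 0 reads do not show absence. H2-L, H2-Q8, H2-Q9 and H2-T9 had no match in the annotation, and their sharing is not known. With the alignment and counting options that the study's methods list, a read aligned equally well to several places, or overlapping exons of several genes, is not counted, so that reads of shared stretches may be missing from each copy. The MHC is also highly polymorphic, and reads of ICR embryos were aligned to the genome of the C57BL/6J strain, and how well ICR alleles aligned was not tested. H2-K1 and H2-D1 together took 48.7%, 49.2%, 56.3% and 48.3% of heavy chain reads, the most in KO1, where H2-Q4 took 27.3% against 36.6% to 37.5% elsewhere.

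**Figure D2:**
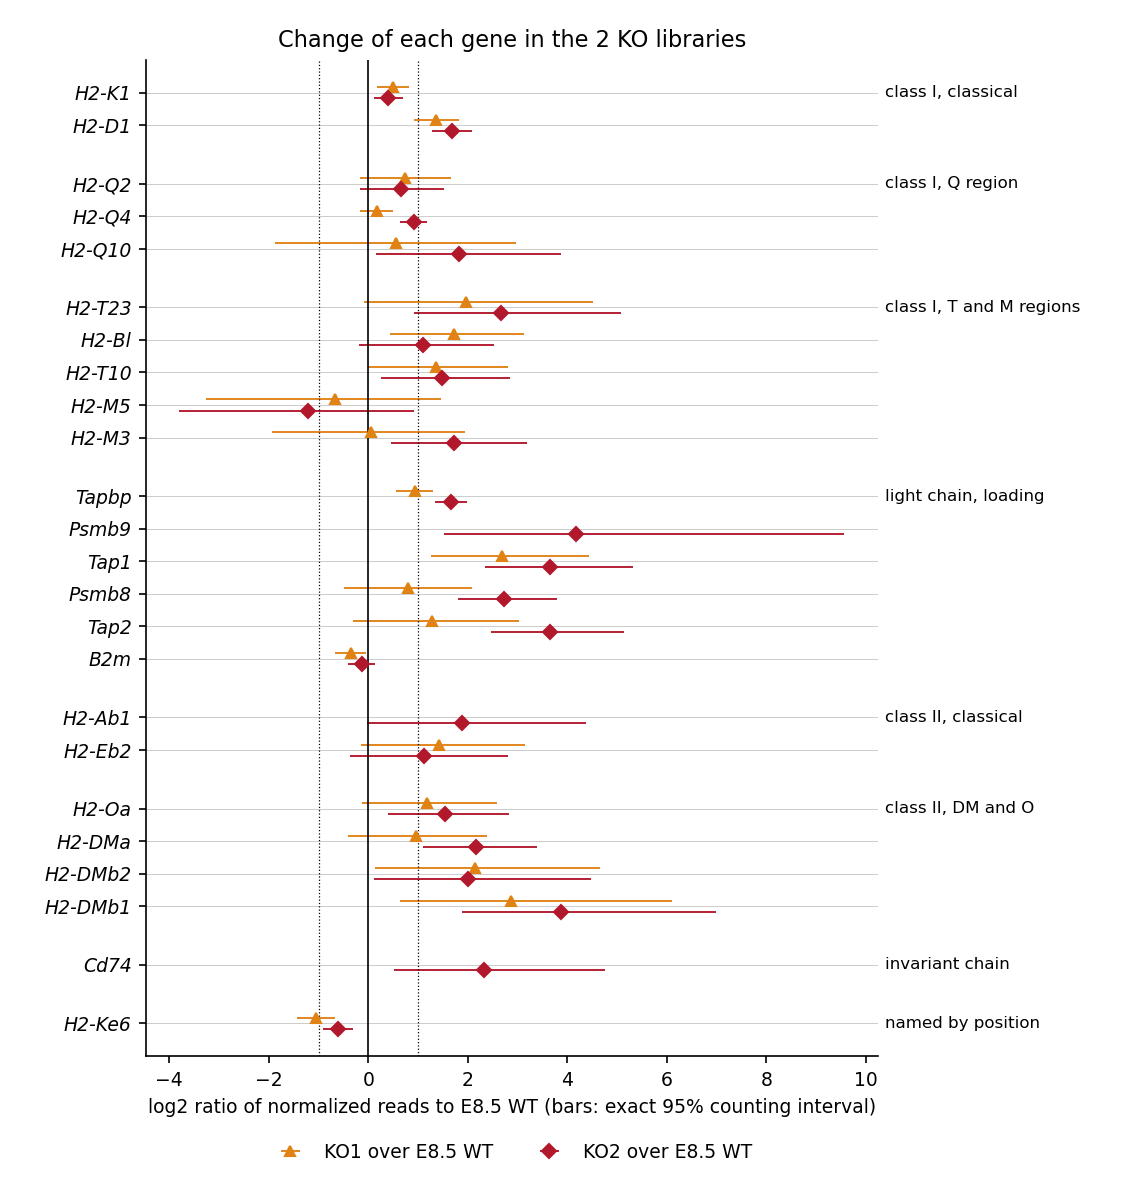
Log2 ratio of normalized reads to E8.5 WT for each member in KO1 (orange triangles) and KO2 (red diamonds), with exact 95% counting intervals; dotted lines mark 1 and -1, and no symbol is drawn where both libraries had at most 3 reads. Both intervals lie above 0 for 7 members, H2-K1, H2-D1, H2-T10, Tapbp, Tap1, H2-DMb1 and H2-DMb2, and both lie below 0 for H2-Ke6.

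Of the genes that cut, pump and load class I peptides, Tap1 and Tap2 were called higher in both KO libraries, and all but B2m were called higher in KO2. The median log2 change of these 6 members with B2m was 0.80 in KO1 and 2.59 in KO2. Tap1 (chromosome 17, 34187553 to 34197225) had 40, 5, 22 and 62 reads. E8.5 WT was the lowest library, and E7.5 WT lay between the 2 KO libraries in CPM. The log2 change from E8.5 WT averaged 2.71 ± 0.65 (SD, n = 2), with an edgeR p of 0.0184 unadjusted and 0.666 adjusted. Set against E7.5 WT, KO1 was at -0.34 and KO2 at 0.57. Tap2, which encodes the other half-transporter of the same pump, had 32, 6, 10 and 75 reads, with a log2 change of 1.04 in KO1 and 3.25 in KO2. The KO1 ratio of Tap2 had an interval of 0.803 to 8.17, which spans no change.

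Psmb8 and Psmb9 encode immunoproteasome subunits that replace Psmb5 and Psmb6 when interferon acts on a cell. Psmb8 had 20, 11, 13 and 72 reads, high in KO2 alone. Psmb9 had 13, 1, 0 and 18 reads, near the floor in E8.5 WT and KO1. For KO1, where both counts were at or under 3, no ratio is given, and the KO2 ratio to E8.5 WT was 18.2 with an interval of 2.87 to 756. Psmb8 made up 2.03%, 1.40%, 2.64% and 7.88% of the reads of Psmb8 and Psmb5 together, so that the standard subunit prevailed in every library. Psmb9 made up 0.432%, 0.0399%, 0 and 0.721% of the reads of Psmb9 and Psmb6. For the 0 of 1949 reads in KO1, the exact binomial interval reached up to 0.189%. Psmb10, the third replaceable subunit and not a member, made up 8.85%, 5.21%, 4.80% and 8.53% beside Psmb7.

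Summed over Tap1, Tap2, Psmb8 and Psmb9, which lie side by side in the class II region, there were 105, 23, 45 and 227 reads. KO1 stood at 2.86 times E8.5 WT (1.70 to 4.96) and KO2 at 9.95 times, with a lower bound of 6.47. E8.5 WT itself stood at 0.212 times E7.5 WT (0.129 to 0.335). KO1 was below E7.5 WT, at 0.607 times (0.418 to 0.869), and KO2 above it, at 2.11 times (1.67 to 2.69). Their sum was thus lowest in E8.5 WT, a library that these comparisons share. Tapbp had 161, 108, 141 and 339 reads and log2 changes of 0.92 and 1.64, with an unadjusted edgeR p of 0.0336 and an adjusted p of 0.666. B2m (chromosome 2, 122147686 to 122153083) had 282, 243, 130 and 220 reads, with log2 changes of -0.35 and -0.13 against E8.5 WT and the highest level in E7.5 WT.

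Class II genes had few reads in any library, and those of the peptide exchange machinery took most of them. The 10 class II members together had 58, 36, 59 and 142 reads, or 4.88, 2.93, 7.03 and 11.7 CPM. KO1 stood at 2.40 times E8.5 WT (1.56 to 3.74) and KO2 at 3.98 times (2.74 to 5.91). The median log2 change of the 6 members compared was 1.09 and 1.41, and all of them but H2-Oa and H2-DMa reached 10 reads through a KO library alone. Of all class I heavy chain and class II reads, class II took 58 of 575 in E7.5 WT, 36 of 516 in E8.5 WT (6.98%, exact 95% interval 4.93% to 9.53%), 59 of 558 in KO1 (8.15% to 13.4%) and 142 of 1043 in KO2 (13.6%, 11.6% to 15.8%). The intervals of KO2 and E8.5 WT did not overlap. The KO1 interval overlapped that of E8.5 WT, which does not show that the shares were alike.

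H2-DMb1 (chromosome 17, 34153072 to 34160230) had 2, 2, 10 and 29 reads. The 2 WT libraries had nearly the same level and both KO libraries were above them, at 7.32 times E8.5 WT in KO1 (1.56 to 68.7) and 14.6 times in KO2 (3.70 to 126). The unadjusted edgeR p was 0.0382 against E8.5 WT and 0.00936 against both WT libraries, with adjusted p of 0.666 and 0.900. H2-DMb2 had 4, 3, 9 and 12 reads, with ratios to E8.5 WT of 4.39 (1.10 to 25.2) and 4.03 (1.09 to 22.3). Against E7.5 WT its intervals, 0.889 to 14.2 in KO1 and 0.887 to 12.5 in KO2, span no change. The 2 genes share 22.7% and 24.8% of their 50-base stretches, H2-DMb1 with H2-DMb2 alone, so that reads of these stretches may be missing from both counts. H2-DMa, the alpha chain partner, had 24, 9, 12 and 40 reads, lowest in E8.5 WT and with KO1 between the WT stages.

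H2-Oa, the alpha chain of the H2-DM inhibitor H2-O, had 10, 9, 14 and 26 reads and log2 changes of 1.02 and 1.34. The KO1 ratio of H2-Oa to E8.5 WT had an interval of 0.918 to 5.96, which spans no change. Its partner H2-Ob had 0 reads in every library. Of the classical class II genes, H2-Aa had 6, 1, 0 and 5 reads, H2-Ab1 had 7, 3, 2 and 11, and H2-Eb1 had 3, 3, 1 and 5. H2-Eb2 had 2, 6, 11 and 13, and H2-Ea-ps had 1 read in KO2. The 5 classical genes together had 18, 13, 14 and 35 reads, and the KO1 ratio to E8.5 WT was 1.58 (0.687 to 3.64), which spans no change. The 5 H2-DM and H2-O genes had 40, 23, 45 and 107 reads, at 2.86 times E8.5 WT in KO1 (1.70 to 4.96) and 4.69 times in KO2 (2.97 to 7.72). The reads of H2-DM made up 51.7%, 38.9%, 52.5% and 57.0% of class II reads.

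Cd74, the invariant chain, had another pattern than H2-DM, with 18, 3, 1 and 15 reads, where E7.5 WT and KO2 were high and E8.5 WT and KO1 at the floor or under it. The transactivator Ciita had 1 read in E8.5 WT and 0 elsewhere. Nlrc5 had 2, 3, 0 and 9 reads. No library had more reads of Ciita than the 3 taken as the floor, at depths of 8198402 to 12562640 counts.

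**Figure D3:**
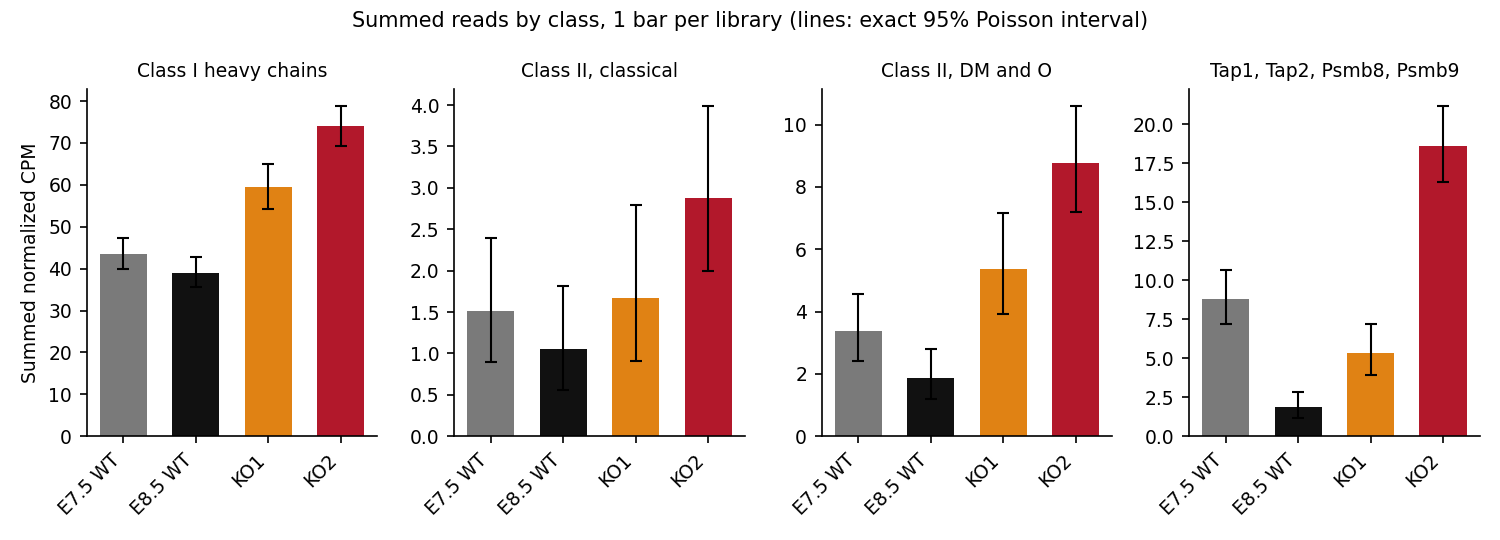
Summed normalized CPM of 4 groups in each library, with exact 95% Poisson intervals (counting error only) and a separate axis from 0 in each panel. Class I heavy chains stood at 39.1 CPM in E8.5 WT and 73.9 in KO2; Tap1, Tap2, Psmb8 and Psmb9 together were lowest in E8.5 WT and higher in E7.5 WT than in KO1.

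The stage comparison sets a scale for these changes. From E7.5 WT to E8.5 WT, 5 members were called lower (H2-DMa, Psmb9, Tap1, Tap2 and Cd74), where 7.82% of genes were called. The fall was greatest for Tap1, at -2.60 on the log2 scale, followed by Psmb9 at -2.29, Tap2 at -2.11, Cd74 and then H2-DMa at -1.27. Set against the same E7.5 WT library, KO2 was at 0.57 for Tap1, 0.38 for Psmb9, 1.14 for Tap2, -0.26 for Cd74 and 0.66 for H2-DMa, near or above it for all 5. KO1 was at -0.34, -2.83, -1.07, -2.51 and -0.45, and stayed called lower for Psmb9, Tap2 and Cd74. Each WT stage was 1 library, and these differences have no replicate check.

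The 2 KO libraries differed from each other, with 8 members higher in KO2 than in KO1 (5.99% of genes called) and 0 lower (4.89%). The 8 were H2-DMa, Psmb9, Psmb8, Tap2, H2-Ab1, H2-Q10, H2-M3 and Cd74. H2-D1, H2-K1, H2-T10 and H2-DMb2 differed by at most 0.30 between the KO libraries on the log2 scale, and Tap2 and Psmb9 by 2.21 and 3.21. Tap1 and Tapbp were above E8.5 WT in both KO libraries beyond counting error, and KO2 was above KO1 for both, at 1.94 times (1.18 to 3.32) and 1.66 times (1.36 to 2.03).

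**Figure D4:**
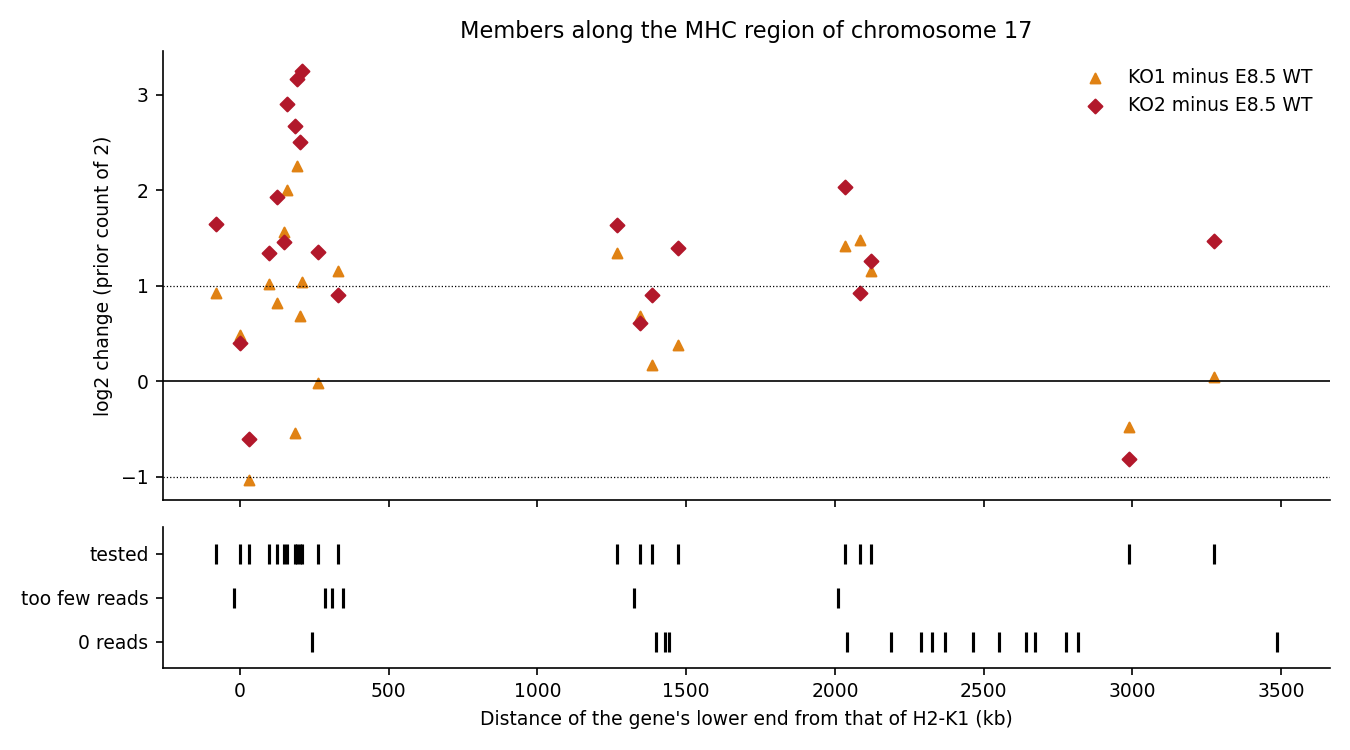
Log2 change in KO1 and KO2 from E8.5 WT for members on chromosome 17 by the distance of their lower end from that of H2-K1, in kilobases, above marks for all members of the region. The highest values are those of Tap1, Tap2, Psmb8, Psmb9 and H2-DMb1 in KO2, in 1 cluster that is also the site of H2-DMa, H2-DMb2 and H2-Oa, and members with 0 reads lie mostly in the T and M regions.

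By position, 44 of the 48 members matched to an annotated position were on chromosome 17. They lay in the K to class II region, the D and Q regions, and the T and M regions. H2-Ke6, between H2-K1 and H2-Oa, had 194, 241, 80 and 157 reads and was called lower in KO1 alone, with log2 changes of -1.03 and -0.60. In the annotation 1419 of its 1643 exon bases also belong to the overlapping gene Gm20427, so that the source of its reads is uncertain. H2-K2 had 3, 6, 2 and 5 reads.

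Other genes of the 2 pathways were counted from lists chosen with earlier results known. Of 18 class I partners compared, 1 was higher in both KO libraries (3.44% of all genes) and 0 lower (1.79%). It was Hfe, a class I-like regulator of iron uptake, with 14, 2, 15 and 17 reads. The peptide trimming gene Erap1 had 63, 62, 65 and 252 reads, the proteasome activator gene Psme2 had 534, 379, 469 and 971, and the tapasin-like gene Tapbpl had 34, 27, 21 and 93, each called in KO2 alone. So was Procr, the receptor gene for protein C, with 59, 17, 20 and 869 reads, the largest change in KO2 among the 18. The general chaperone genes Calr, Canx and Pdia3 were not called in either KO library. Of 12 class II partners compared, 0 were called in either direction in both, and the promoter factor gene Rfx5 had 137, 168, 123 and 150 reads.

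Interferon gamma is the best known inducer of these genes, and Ifng had 0 reads in each library. Of 17 genes of the interferon and NF-kB inducer list that were compared, 0 were called in both KO libraries. The transcription factor Irf1 had 186, 72, 85 and 248 reads, called higher than E8.5 WT in KO2 but not in KO1. The part of these inducers in the MHC values was not tested. Of 16 interferon-stimulated genes compared, 3 were higher in both KO libraries (Oas1a, Oas3 and Irgm1) and 0 lower. Irgm1, an interferon-induced GTPase, had 39, 30, 44 and 167 reads.

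Markers of cell types that could carry MHC transcripts also differed between the libraries, and in bulk RNA more cells of a type and more RNA per cell cannot be told apart. The 28 macrophage and dendritic cell markers summed to 27.1, 32.0, 30.4 and 38.0 CPM. Much of the sum in E8.5 WT and KO1 was Mrc1, an endocytic receptor gene with 8, 123, 116 and 25 reads. Without it, a choice made after the data were seen, the list had 314, 270, 139 and 438 reads, lowest in KO1 at 16.6 CPM and highest in KO2 at 35.9. The macrophage receptor gene Csf1r had 36, 15, 11 and 131 reads and the lysozyme gene Lyz2 had 26, 4, 5 and 58. Both were called higher in KO2 and were highest there, with E7.5 WT next. Against E8.5 WT, 3 of the 10 markers compared were called higher in KO2 (9.41% of all genes) and 4 lower (5.91%). The median log2 change of the 10 was 0.09 in KO1 and -0.43 in KO2. The leukocyte gene Ptprc had 1, 1, 0 and 8 reads, Adgre1 had 1, 0, 0 and 3, and 9, 11, 13 and 5 markers of the list were at 0. Of this list 1 gene, Itgam, was higher in both KO libraries and 2, Cd14 and Fcgr3, were lower. Itgam reached the minimum count for comparison through KO2 alone. The 6 B cell markers had 10, 17, 1 and 4 reads, and 1 of them, Pax5, was lower in both KO libraries. The part of these cells in the MHC values was not tested.

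The natural killer and T cell list without Eomes, left out after the data were seen because it also marks extraembryonic ectoderm, had 56, 7, 39 and 357 reads over 19 genes. With Eomes the list had 1389, 71, 116 and 3485. Prf1, Gzma to Gzmg and Cd8a, 9 genes in all, were higher in both KO libraries, where 3.44% of all genes were. Of these 9, Prf1, Gzma to Gzme and Gzmg reached the minimum count for comparison through KO2 alone. A higher KO level was thus part of their choice, and only Gzmf and Cd8a reached the minimum in a WT library. Klrb1c, Ncr1 and Cd3e had at most 1 read in any library. The order of the 4 libraries in CPM without Eomes was 4.71, 0.570, 4.64 and 29.3, lowest in E8.5 WT and highest in KO2, as for the Tap and Psmb genes. The 18 trophoblast giant cell markers summed to 291, 202, 459 and 1242 CPM, and the 16 maternal decidua markers to 733, 577, 675 and 796, each with its lowest value in E8.5 WT and its highest in KO2. Of the 16 decidua markers, 3 were called higher than E8.5 WT in KO1 (4.97% of genes) and 2 lower (3.31%). In KO2, 6 were called higher (9.41%) and 0 lower (5.91%). Whether reads of the decidua list came from decidua or from the embryo itself was not tested. Prl3d1, Prl2c2 and Rhox6 of the first list and Prl8a2 and Bmp8a of the second were called higher in both KO libraries. Among them Prl2c2 reached the minimum count through KO2 alone. The part of these cells in the MHC values was not tested.

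The label of whole embryo was checked against other lists. How much extraembryonic tissue or yolk sac was taken from each E8.5 embryo for genotyping is not known. The 12 embryo proper, 9 visceral endoderm, 8 endothelial and 8 extraembryonic ectoderm markers were detected in all 4 libraries. Extraembryonic ectoderm markers summed to 557, 359, 303 and 493 CPM, visceral endoderm markers to 7233, 7304, 4350 and 4190, endothelial markers to 110, 398, 392 and 293, and embryo proper markers to 981, 480, 521 and 898. Of these, Apoa1, Rbp4, Pax6 and Nkx2-5 were called lower in both KO libraries. The extraembryonic ectoderm and embryo proper sums in KO2 lay nearer to E7.5 WT than to E8.5 WT.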

How the data were processed

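RNA was extracted from embryos labelled as whole, and libraries were made with a stranded polyadenylated RNA kit. Genotyping of the E8.5 embryos used extraembryonic tissue or yolk sac. The authors deposited raw counts per gene. Their methods name Cutadapt 2.8 for trimming, HISAT2 2.1.0 with the mm10 genome for alignment, and featureCounts 2.0.0 for strand-aware exon counts.

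Counts of the whole table were normalized by TMM in edgeR 4.0.16 (R 4.3.3), and a gene was compared where any library had at least 10 counts. Log2 changes used a prior count of 2 and a threshold of 1. Quasi-likelihood tests set the KO libraries against E8.5 WT, or against the 2 WT libraries as 1 group, with Benjamini-Hochberg adjustment over all genes; DESeq2 1.42.0 was the alternative. The fitting was tested on simulated data. Every member is named or counted, and genes of other lists are named where called in both KO libraries (all 9 of the natural killer list, over the 6 a list was meant to name). Erap1, Psme2, Tapbpl, Procr, Csf1r, Lyz2, Mrc1, Calr, Canx, Pdia3, Rfx5, Ifng, Irf1 and the markers named with few reads were named for their role or after their values were seen. The floor was 3 counts. Exon lengths and positions came from GENCODE M21 on GRCm38, which matched 48 of 52 members, and promoters from RefSeq. The members and lists were chosen with earlier results of these data known. The values of 1 gene of the lists are not reported here.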

Additional observations from a re-analysis of the deposited data

How the results depend on the processing

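Another scaling (DESeq2 size factors or plain CPM) left every count of called members within 1.5 times its value and no direction reversed. The 8 members higher in both KO libraries became 3 with a minimum of 50 counts, 2 with a threshold of 2 on the log2 scale, 5 with at least 10 counts in a WT library, and 10 to 16 when 1 KO library was left out. The 3 above both WT stages became 0 with 50 counts, 0 with a threshold of 2, 0 with the WT filter, 5 with a prior count of 0.5, and 5 to 8 with 1 KO library left out. The 0 lower in both became 0 to 1. The 1 member higher in E8.5 WT than in E7.5 WT became 2 with no filter or a prior count of 0.5, and 0 with 50 counts or the WT filter. The 5 lower became 2 with 50 counts. The 8 members higher in KO2 than in KO1 became 2 with 50 counts, 3 with a threshold of 2 and 5 with the WT filter. The median change of class II members, 1.28, was 1.03 with no filter, and no class II member had 50 counts. That of class I heavy chains, 0.82, was 0.54 with 50 counts and 0.59 with the WT filter. Stricter filters test fewer members. Under another scaling or prior count, 3 of 72 values of single members moved by more than the spread between the KO libraries. Without KO2, the mean change turned from 1.06 to -0.54 for Psmb9, from 0.62 to -0.51 for Cd74 and from 0.67 to -0.02 for H2-Ab1, none of them called in both KO libraries. No paired analysis was possible because each WT stage had 1 library. Members with under 10 reads in a library cannot show changes of less than several times at this depth.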
